A study of Saccharomyces cerevisiae with 12 samples.

Results

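The interaction of 5-fluorouracil with time in budding yeast, Saccharomyces cerevisiae, was measured as a difference of differences in total RNA. For every feature, the log2 difference between cells with and without the drug at 40 min was subtracted from the same difference at 100 min. Its estimate rests on 8 of the 12 libraries of the study, 2 biological replicates in each of 4 groups. Its p-values use a spread estimated from all 12 libraries. The interaction was computed for all features. Of 12026 in the table, 11485 passed a filter on low values and were tested, among them 5725 of 5798 genes. The groups were wild type at 40 min, wild type at 100 min, wild type with FU at 40 min and wild type with FU at 100 min, with times counted from synchronization. The title of the study names 5-fluorouracil, which is taken to be the FU of the labels. The labels do not state the drug's dose or time of addition, the method of synchronization or the strain background. All groups are wild type in genotype, and the other 4 libraries come from an rrp6 mutant at the same times.

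Dividing yeast cells switch on successive sets of genes. The factors SBF and MBF act at the entry into S phase, a complex of Mcm1, Fkh2 and Ndd1 drives the CLB2 cluster in mitosis, and Swi5 enters the nucleus as cells leave mitosis and switches on genes of early G1. Genes whose products cut the septum between mother and daughter are transcribed at about the same stage. The enzyme ribonucleotide reductase makes the precursors of DNA, and damaged or stalled DNA raises its genes through the kinases Mec1, Rad53 and Dun1, which relieve the repressor Rfx1 (Crt1). 5-fluorouracil is converted into nucleotides that block thymidylate synthase, the product of CDC21, and that enter RNA and hinder its processing.

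Promoters are shown for genes from both directions of the interaction, to show where the motifs of the cell cycle factors lie in them. Each window runs from 250 bases before to 50 bases from the annotated start of the gene and is written from 5′ to 3′ on the strand of the gene, as RefSeq gives it in the R64 assembly. Capitals mark CCAGCA (a core of Swi5 sites) or ACGCGT (the MBF element MCB), searched on both strands, so that TGCTGG is the same motif read on the other strand. EGT2 (chr14:23798-24097, plus strand), AIM44 (chr16:254261-254560, minus strand) and SIC1 (chr12:286570-286869, plus strand) had negative interactions (not called for SIC1), and HUG1 (chr13:158510-158809, plus strand) and RNR3 (chr9:240659-240958, minus strand) positive ones (not called for RNR3).
EGT2: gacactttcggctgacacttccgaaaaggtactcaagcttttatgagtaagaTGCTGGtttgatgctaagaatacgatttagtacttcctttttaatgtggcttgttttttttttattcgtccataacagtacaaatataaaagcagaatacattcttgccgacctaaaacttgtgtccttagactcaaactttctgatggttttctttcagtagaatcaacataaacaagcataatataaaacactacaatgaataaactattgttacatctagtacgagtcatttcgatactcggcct
AIM44: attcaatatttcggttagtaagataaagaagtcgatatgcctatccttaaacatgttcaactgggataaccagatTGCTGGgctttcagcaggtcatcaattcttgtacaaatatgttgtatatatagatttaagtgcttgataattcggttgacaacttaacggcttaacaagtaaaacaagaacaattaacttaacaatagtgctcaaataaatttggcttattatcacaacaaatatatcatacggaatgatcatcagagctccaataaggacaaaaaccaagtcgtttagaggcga
SIC1: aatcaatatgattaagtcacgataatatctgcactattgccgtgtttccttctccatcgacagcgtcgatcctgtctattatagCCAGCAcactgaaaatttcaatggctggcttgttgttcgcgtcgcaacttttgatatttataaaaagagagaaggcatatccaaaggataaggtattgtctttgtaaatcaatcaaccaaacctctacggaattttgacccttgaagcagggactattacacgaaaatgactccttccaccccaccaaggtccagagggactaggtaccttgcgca
HUG1: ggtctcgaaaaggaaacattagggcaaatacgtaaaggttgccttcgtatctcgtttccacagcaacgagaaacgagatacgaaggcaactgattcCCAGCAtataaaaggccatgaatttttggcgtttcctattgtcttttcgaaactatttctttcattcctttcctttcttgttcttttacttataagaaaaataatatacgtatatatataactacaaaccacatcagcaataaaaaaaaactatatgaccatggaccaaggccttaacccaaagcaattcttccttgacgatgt
RNR3: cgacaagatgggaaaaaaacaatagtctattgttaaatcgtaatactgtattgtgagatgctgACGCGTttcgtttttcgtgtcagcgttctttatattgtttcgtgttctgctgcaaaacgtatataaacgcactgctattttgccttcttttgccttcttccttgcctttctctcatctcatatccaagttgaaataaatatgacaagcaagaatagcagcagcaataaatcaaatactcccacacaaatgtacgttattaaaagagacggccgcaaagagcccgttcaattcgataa
Counted from the first base of the gene, CCAGCA begins at -198 in EGT2, -175 in AIM44, -166 in SIC1 and -154 in HUG1, and ACGCGT begins at -187 in RNR3. Of 5735 genes with a window, 9.08% held CCAGCA and 3.19% held ACGCGT. Of the 10 genes with a called negative interaction, 2 (20%) held CCAGCA (EGT2 and AIM44) and 2 held ACGCGT (AMN1 and MLO50). Of these genes 0 held CGCGAAA (3.66% of all windows) or the forkhead element GTAAACA (6.75%). CGCGAAA was the only form of SBF site searched, so the count does not cover other forms. ACGCGT begins at -57 in MLO50 but at 11 in AMN1, which is inside the gene and not before its start. In the list of cell separation genes described below, CCAGCA was found in 3 of 28 windows (10.7%), close to the share of all windows. GTAAACA was found in 15 of 34 windows of the CLB2 cluster (44.1%), and ACGCGT in 28 of 43 windows of DNA replication genes (65.1%). These are matches of letters and not tests of binding.

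The deposited values are densities, that is, reads per nucleotide of a feature, scaled so that the total over genes is equal in all libraries. In the 8 libraries the depth was 20102931 to 25873312 reads over all features. Across genes, which are not independent, the Pearson correlation of replicates at 40 min was 0.9426 (wild type) and 0.9537 (FU). At 100 min the correlations were 0.9912 and 0.9862. The 40 min replicates stood apart: snoRNAs took 11.682% of reads in replicate 1 and 20.237% in replicate 2 of wild type, and 10.064% and 20.862% with FU, against 11.897% to 15.369% in the 4 libraries at 100 min. Whether this gap bears on the results below was not tested, and counts without these libraries are given. The libraries are bulk RNA, so fewer cells at a stage and less RNA per cell cannot be told apart. Mating type genes reached densities of at most 0.215 for the 7 a-specific genes (MFA1) and 0.363 for the 4 alpha-specific genes (MF(ALPHA)1), and the meiotic markers at most 0.314 (IME2). MF(ALPHA)1, which encodes the alpha pheromone, differed between the groups. It was 0.153 and 0.114 at the early and 0.305 and 0.363 at the late time in wild type. With FU it was 0.0244 and 0.0256, then 0.0207 and 0.0331, and in rrp6 0.0286 and 0.0401, then 0.0227 and 0.0311. MF(ALPHA)1 was called lower with FU at both times (-1.96 ± 0.28 and -3.17 ± 0.28), with an interaction of -1.20 ± 0.39 (adjusted p = 0.519). The other alpha-specific genes were not called on the deposited scale and did not share a direction. Their drug effects at 40 and 100 min were 0.48 and 0.71 for SAG1, -0.73 and -0.97 for STE3, and 0.06 and -0.49 for MF(ALPHA)2. Of the a-specific genes 1 was called higher with FU at each time on the deposited scale and 0 with the other scalings, and the interaction median was 0.26 for the 7 and -0.40 for the 4. The part of these differences in the results below was not tested.

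An interaction of FU with time was called in 12 features, at an adjusted p under 0.05 in a limma fit with 1 mean per group. These calls were not made in every other fit, as given below. In 10 genes and 1 short transcript the interaction was negative (11 of 11485 features, 0.0958%), and in 1 gene, HUG1, it was positive (0.00871%). Of the 11 negative features, 10 rose with time in wild type, all 11 were lower with FU at 100 min, and 7 fell with time with FU. Only SAM1 of the 11 was called higher with FU at 40 min, a call of the deposited scale that median of ratios and quantile scaling did not make. With FU, the mean density at 100 min lay below that of wild type at 40 min in 10 of the 11. All 16 combinations of single libraries gave 1 sign in each of the 12, which was also so in 643 features (5.6%) on the positive side and 1230 (10.7%) on the negative side. At an unadjusted p under 0.05 there were 283 positive features (2.46%) and 560 negative ones (4.88%). These shares are the background for the interaction counts of the lists given below. The median of all features was -0.10.

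The drug effects and time changes that make up the interaction were called as follows. At 40 min 292 features rose with FU (2.54%) and 27 fell (0.235%), and at 100 min 200 rose (1.74%) and 47 fell (0.409%). From 40 to 100 min 150 rose (1.31%) and 122 fell (1.06%) in wild type, and 158 rose (1.38%) and 303 fell (2.64%) with FU. These shares are the background for the counts of drug effects and time changes in the lists. The contrasts share libraries with each other and with the interaction, and their splits depend on the scale. With median of ratios scaling 1 rose and 4 fell at 40 min, 56 rose and 63 fell at 100 min, 229 rose and 148 fell with time in wild type, and 250 rose and 156 fell with time with FU. Quantile normalization gave 0 and 4, 41 and 69, 176 and 99, and 269 and 128 in the same order. On the deposited scale the median gene was 0.37 higher with FU at 40 min and 0.30 higher at 100 min, so that the shift largely cancels in the interaction, where the median gene lay at -0.07. Leaving out single libraries moved the calls to between 6 and 1340 for the drug at 40 min, 34 and 462 at 100 min, 26 and 402 for time in wild type and 13 and 1012 for time with FU.

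**Figure D1:**
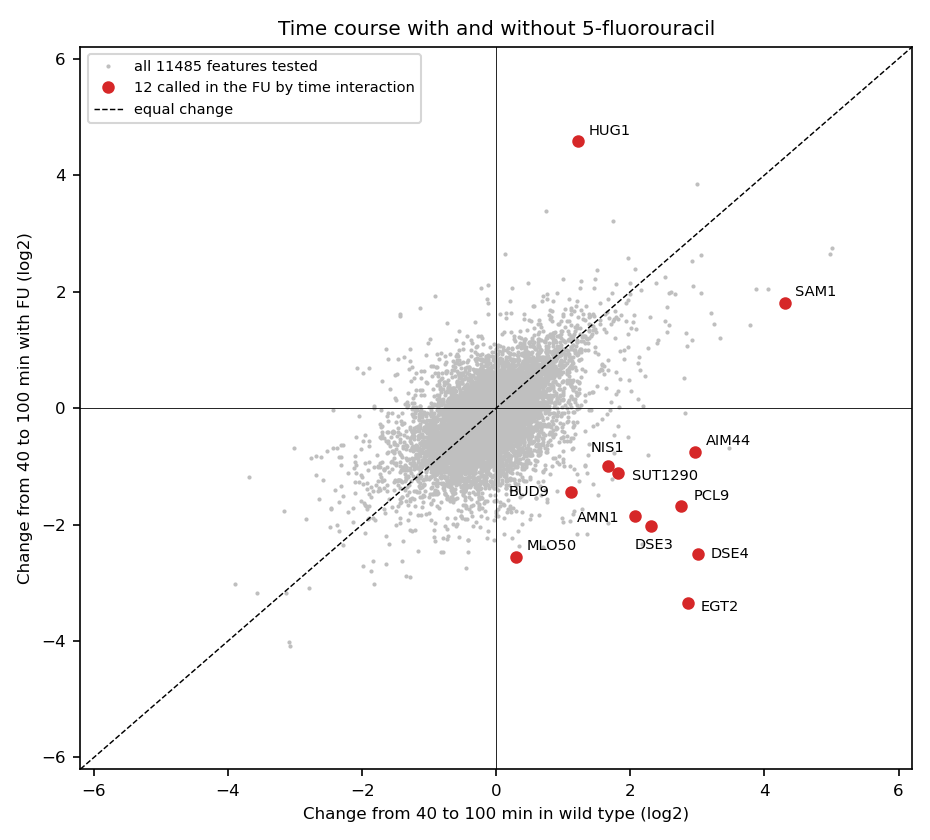
Log2 change from 40 to 100 min in wild type (x axis) and with FU (y axis) for all 11485 features tested. Points are means over 2 libraries a group, red points are the 12 called features and the dashed line is equal change; HUG1 lies above the line, and 10 of the 11 called features below it lie under 0 on the y axis, SAM1 being the exception.

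No call of the interaction was made when any single library at 100 min was left out, wild type or FU, with 545 to 827 features at an unadjusted p under 0.05 in limma. Neither was any made after quantile normalization (815 features at an unadjusted p under 0.05), nor when the 8 libraries were fitted without the rrp6 libraries (532 features at an unadjusted p under 0.05). Without both replicate 2 libraries at 40 min 15 features were called, of which 9 are among the 12, and without both replicate 1 libraries 54, which hold all 12. Single 40 min libraries moved the count to 6 (without wild type replicate 2) and to 32 (without FU replicate 1).

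Genes of cell separation and of the passage from mitosis to G1 made up most of the called negative features. Of 29 genes in a list for cell separation and the M/G1 stage, all of which were tested, 7 had a called negative interaction and 0 a positive one, against 0.0958% and 0.00871% of all features. At an unadjusted p under 0.05, 17 were negative and 0 positive. The median interaction of the list was -1.81, which ranged from -2.28 to -1.38 under the alternatives tried, beside -0.10 for all features. In wild type 10 of the 29 rose with time and 0 fell, beside 1.31% and 1.06% of all features. With FU 0 rose and 10 fell, beside 1.38% and 2.64%. The 10 falls were 5 with median of ratios and 6 with quantile scaling. At 100 min 14 of the 29 were called lower with FU, beside 0.409% of all features. At 40 min 0 were called in either direction.

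EGT2 (YNL327W, chromosome 14, 24048 to 27173, plus strand), a cell wall protein needed for mother and daughter to part, had the largest negative interaction. In wild type its density was 0.337 and 0.618 in the early libraries (40 min) and 3.24 and 3.55 in the late ones (100 min). With FU the early libraries gave 0.381 and 1.04 and the late ones 0.0526 and 0.0495. Both libraries with FU at 100 min lay below all 6 others, and the wild-type libraries at 100 min above all others, while at 40 min the groups overlapped. The interaction was -6.21 ± 0.64 (log2, ± SE, adjusted p = 0.0192), with a rise of 2.86 ± 0.45 in wild type and a change of -3.35 ± 0.45 with FU. At 100 min the mean density was 66.5-fold higher in wild type than with FU, from 10384 and 12094 reads against 207 and 178.

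DSE4 (YNR067C, chromosome 14, 755746 to 759099, minus strand) encodes a daughter-specific glucanase that digests the septum wall. Its density was 0.156 and 0.319, then 1.68 and 2.13, in wild type, and 0.196 and 0.512, then 0.0537 and 0.0391, with FU, where the pair after "then" is at 100 min, here and in what follows. The FU libraries were again the lowest of the 8 at 100 min and overlapped wild type at 40 min, and the interaction was -5.52 ± 0.69 (adjusted p = 0.0278). DSE3 (YOR264W, chromosome 15, 818866 to 820158, plus strand), another daughter-specific gene, went from 0.155 and 0.201 to 0.845 and 1.01 in wild type and from 0.202 and 0.364 to 0.0762 and 0.0437 with FU, an interaction of -4.33 ± 0.47 (adjusted p = 0.0192). AMN1 (YBR158W, chromosome 2, 556549 to 558198, plus strand), which restrains mitotic exit in daughters, went from 0.334 and 0.453 to 1.80 and 1.55 in wild type and from 0.453 and 0.678 to 0.162 and 0.129 with FU, an interaction of -3.92 ± 0.35 (adjusted p = 0.0137). In DSE3 and AMN1 the groups did not overlap at 100 min and touched or lay close to each other at 40 min, and both genes rose with time in wild type and fell with FU.

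PCL9 (YDL179W, chromosome 4, 138291 to 139205, plus strand), a G1 cyclin of the kinase Pho85, went from 0.0849 and 0.121 to 0.707 and 0.810 in wild type and from 0.128 and 0.220 to 0.0616 and 0.0313 with FU. Its interaction was -4.44 ± 0.48 (adjusted p = 0.0192), and the mean density of wild type at 100 min was 16.3-fold that with FU, with no overlap at either time. NIS1 (YNL078W, chromosome 14, 479768 to 480991, plus strand), a protein of the bud neck, went from 0.111 and 0.0833 to 0.389 and 0.280 in wild type and from 0.141 and 0.164 to 0.0785 and 0.0624 with FU. BUD9 (YGR041W, chromosome 7, 577487 to 579130, plus strand), a mark of the bud site, went from 0.184 and 0.141 to 0.422 and 0.311 and from 0.211 and 0.227 to 0.0826 and 0.0639. The FU libraries of NIS1 and BUD9 were higher than wild type at 40 min without overlap, a difference that was not called, and lower at 100 min. Their interactions were -2.66 ± 0.34 (adjusted p = 0.0282) and -2.56 ± 0.33 (adjusted p = 0.0293).

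The called genes AIM44 and MLO50 are not in the list. AIM44 (YPL158C, chromosome 16, 252034 to 254310, minus strand), a protein of the bud neck, went from 0.0483 and 0.0553 to 0.420 and 0.565 in wild type and from 0.0653 and 0.102 to 0.0530 and 0.0362 with FU. It rose by 2.97 ± 0.31 in wild type, and its change with FU, -0.75 ± 0.31, was not called, with an interaction of -3.72 ± 0.43 (adjusted p = 0.0226). MLO50 (YLR049C, chromosome 12, 243886 to 245172, minus strand) had another course. It was 0.231 and 0.204, then 0.279 and 0.263, in wild type, and 0.487 and 0.328, then 0.0561 and 0.0607, with FU. Its density with FU lay above wild type at 40 min and below it at 100 min with no overlap, the change in wild type (0.30 ± 0.25) was not called, and the interaction was -2.85 ± 0.36 (adjusted p = 0.0278).

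**Figure D2:**
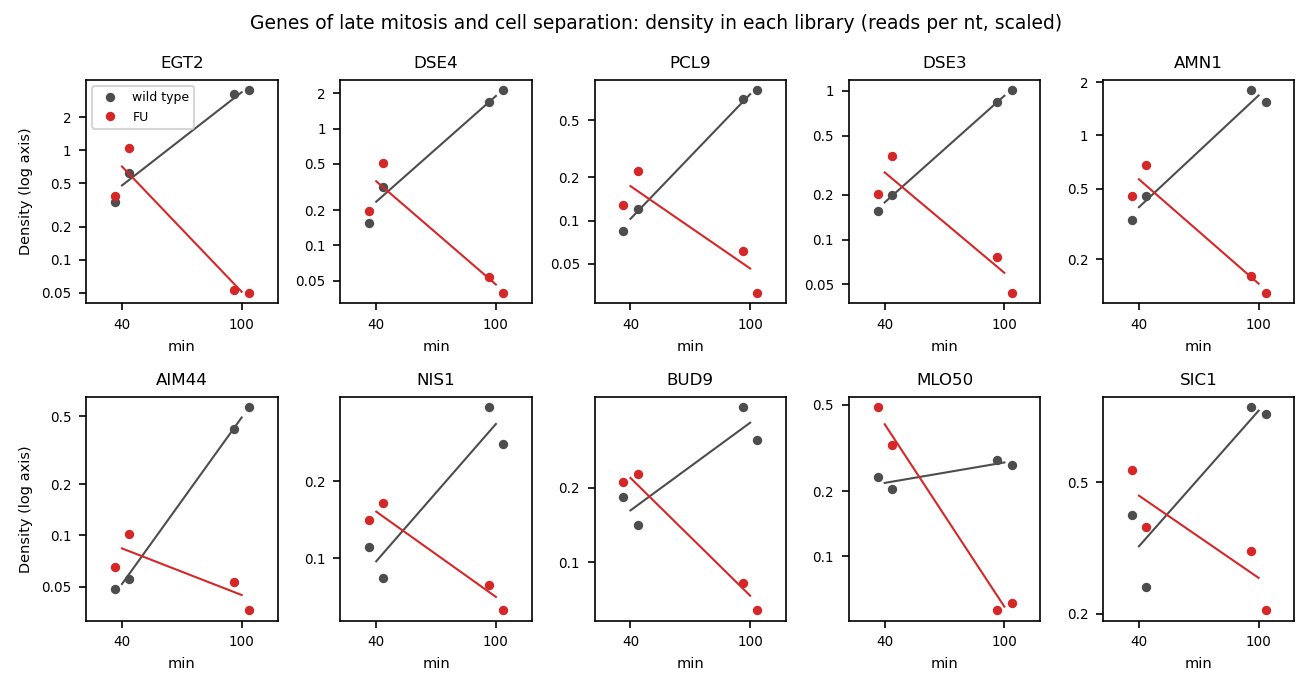
Density in each library (log axis, reads per nucleotide on the deposited scale) at 40 and 100 min for 8 called genes of cell separation and the bud neck, for MLO50 and for SIC1; grey is wild type, red is FU, and lines join the arithmetic means of 2 libraries. In EGT2 the wild-type libraries rose to 3.24 and 3.55 while the FU libraries fell to 0.0526 and 0.0495.

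Other members of the list had large negative values that did not pass the adjusted threshold; those named here outside the naming rule, in this paragraph and the rest of the text, were chosen after their values were seen. SCW11, a cell wall protein of the glucanase family, was 0.269 and 0.543, then 1.65 and 1.88, in wild type, and 0.313 and 1.01, then 0.112 and 0.0928, with FU (interaction -4.51 ± 0.72, adjusted p = 0.0863). PIR1, a structural cell wall protein, reached 9.01 and 10.9 in wild type at 100 min against 0.509 and 1.18 with FU (-4.16 ± 0.69, adjusted p = 0.0985). The chitinase gene CTS1 at 100 min was 4.41 and 4.27 without the drug and 0.723 and 0.805 with it (-2.96 ± 0.58, adjusted p = 0.178). For DSE1 the value was -2.92 ± 0.43 (adjusted p = 0.0675) and for ASH1, a repressor of HO in daughters, -3.06 ± 0.52 (adjusted p = 0.105). In all 5 of these genes FU was called lower at 100 min and not called at 40 min. At the other end of the list PIR3 had a value of 1.02, CIS3 of 0.68 and MOB2 of 0.68, and CBK1, a kinase of polarity and cell separation, of -0.14, all at an unadjusted p above 0.05.

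SIC1 (YLR079W, chromosome 12, 286820 to 287674, plus strand), the inhibitor of cyclin-dependent kinase that holds cells in G1 and a target of Swi5, was 0.397 and 0.242, then 0.840 and 0.801, in wild type. With FU it was 0.545 and 0.366, then 0.309 and 0.205. Wild type at 100 min was the highest group with no overlap, and at 40 min the groups overlapped. Its interaction of -2.16 ± 0.43 did not pass (adjusted p = 0.180), while its drug effect at 100 min was called (-1.66 ± 0.31, adjusted p = 0.0299).

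The genes of mitosis itself were split. Of 34 genes of the CLB2 cluster and of mitotic control, 0 had a called interaction, and the median was -0.26. At an unadjusted p under 0.05, 10 were negative and 1 positive, beside 4.88% and 2.46% of all features. In wild type 11 of them rose with time and with FU 4 did, beside 1.31% and 1.38% of all features. CLB2 (YPR119W), the main mitotic cyclin, was 0.118 and 0.0820, then 0.485 and 0.650, in wild type, and 0.104 and 0.168, then 0.639 and 0.623, with FU. The CLB2 groups overlapped at both times, it rose with time in both (2.38 ± 0.27 and 2.15 ± 0.27), and the interaction was -0.22 ± 0.39 (adjusted p = 0.999), a value whose sign changed with the libraries used. CLB1 (YGR108W), its paralog, was 0.132 and 0.0650, then 0.328 and 0.353, in wild type, and 0.0675 and 0.0360, then 0.748 and 0.427, with FU. Its interaction was 1.48 ± 0.54 (adjusted p = 0.607), and its rise with time was called with FU (3.22 ± 0.38) and not in wild type (1.74 ± 0.38, adjusted p = 0.0543).

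KIN3, a mitotic kinase, stood lowest in the cluster at -2.90 ± 0.46 (adjusted p = 0.0835). It was 0.0235 and 0.0206, then 0.217 and 0.238, in wild type and 0.0302 and 0.0540, then 0.0504 and 0.0272, with FU, where its change of -0.09 ± 0.33 was not called. HOF1, of the cytokinetic ring, had a value of -2.15 ± 0.56, CHS2, the chitin synthase of the septum, of -1.75 ± 0.53, and CDC20, an activator of the anaphase-promoting complex, of -1.33 ± 0.34. All 3 rose with time in wild type, and their changes with FU were not called. SWI5, the gene of the factor itself, was not called (-0.87 ± 0.50, adjusted p = 0.804). At 100 min SWI5 was 0.123 and 0.122 without the drug and 0.0679 and 0.0396 with it, with no overlap.

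The only gene with a called positive interaction, HUG1, belongs to a list of DNA damage genes. Of 32 in the list 1 was called, HUG1, and 0 negative. At an unadjusted p under 0.05, 8 were positive and 0 negative, beside 2.46% and 4.88% of all features, and the list's median was 0.27. Lists with higher medians and 0 calls included cytosolic ribosomal proteins (0.68, 49 positive at an unadjusted p under 0.05), general stress (0.63) and histones (0.45), described below. At 100 min 9 of the 32 rose with FU and 0 fell, beside 1.74% and 0.409% of all features. With median of ratios and quantile scaling 7 and 6 rose at 100 min. At 40 min 0 were called.

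HUG1 (YML058W-A, chromosome 13, 158760 to 158966, plus strand), a small protein that restrains ribonucleotide reductase and marks the damage response, was 0.0586 and 0.0386, then 0.141 and 0.115, in wild type. With FU its density was 0.132 and 0.0781 in the libraries of 40 min, then 2.98 and 2.48. The FU libraries were above both wild-type libraries at each time, by far the most at 100 min. The drug effect was 0.93 ± 0.28 at 40 min (adjusted p = 0.0895) and 4.29 ± 0.28 at 100 min (adjusted p = 0.000798), and the interaction 3.36 ± 0.39 (adjusted p = 0.0226). The reads behind it were 8 to 36 in the 6 other libraries and 776 and 590 with FU at 100 min. HUG1 lies opposite the transcript MUT1091 over all 207 nt (interaction of MUT1091 -0.22 ± 0.39). The library kit keeps the strand, but whether the counting used it is not stated in the labels.

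The subunits of ribonucleotide reductase had positive values that did not pass the adjusted threshold. RNR2 (YJL026W, chromosome 10, 392404 to 393603, plus strand), the small subunit, was 4.37 and 3.23, then 3.78 and 4.46, in wild type, and 6.35 and 4.60, then 29.1 and 39.5, with FU. Both FU libraries at 100 min lay above all others, 8.32-fold above wild type in mean density, with an interaction of 2.52 ± 0.38 (adjusted p = 0.0675). RNR4 (YGR180C, chromosome 7, 855264 to 856301, minus strand), its partner, was 1.20 and 0.598, then 1.42 and 1.43, in wild type and 2.00 and 0.844, then 12.6 and 14.9, with FU (2.64 ± 0.57, adjusted p = 0.233). RNR3 (YIL066C, chromosome 9, 238099 to 240708, minus strand), the damage-induced large subunit, was 0.0217 and 0.0130, then 0.0157 and 0.0106, and with FU 0.0482 and 0.0313, then 0.190 and 0.213 (2.28 ± 0.42, adjusted p = 0.146). RNR1, the main large subunit, overlapped more: 2.45 and 5.66, then 2.78 and 2.70, in wild type, and 5.39 and 7.26, then 7.43 and 10.7, with FU (0.95 ± 0.52, adjusted p = 0.770). RNR1 and RNR3 are close in sequence, and reads may be split between them. RNR2, RNR3 and RNR4 all rose with FU at 100 min, by 3.04 ± 0.27, 3.09 ± 0.30 and 3.25 ± 0.40, and were not called at 40 min. Some interactions became calls in other fits. RNR2 and RNR4 were called with the replicate block within time (adjusted p = 0.0284 and 0.0479) and without FU at 40 min replicate 1 (adjusted p = 0.0362 and 0.0333). RNR2 and RNR3 were called with the 10-fold constant (adjusted p = 0.0477 and 0.0291).

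Other damage genes with a positive value at an unadjusted p under 0.05 included PLM2, DUN1 and RFX1. PLM2, a factor active at G1/S and after damage, was at 100 min 0.0566 and 0.0457 without the drug and 0.684 and 0.560 with it (interaction 2.32 ± 0.58, adjusted p = 0.318). For DUN1, a checkpoint kinase, the value was 1.31 ± 0.47, and for RFX1, the repressor of the reductase genes, 0.80 ± 0.32. RFX1 itself was higher with FU at 100 min (1.38 ± 0.23, adjusted p = 0.0191), where it was 0.158 and 0.153 against 0.0584 and 0.0464. SML1, an inhibitor of Rnr1 that lies 416 nt from HUG1 on the same strand, was 1.62 and 3.12, then 1.68 and 2.88, in wild type and 1.21 and 8.46, then 3.87 and 12.2, with FU. In SML1 replicate 2 was the higher library of every group, and its value was 1.13 ± 1.17 (adjusted p = 0.969).

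**Figure D3:**
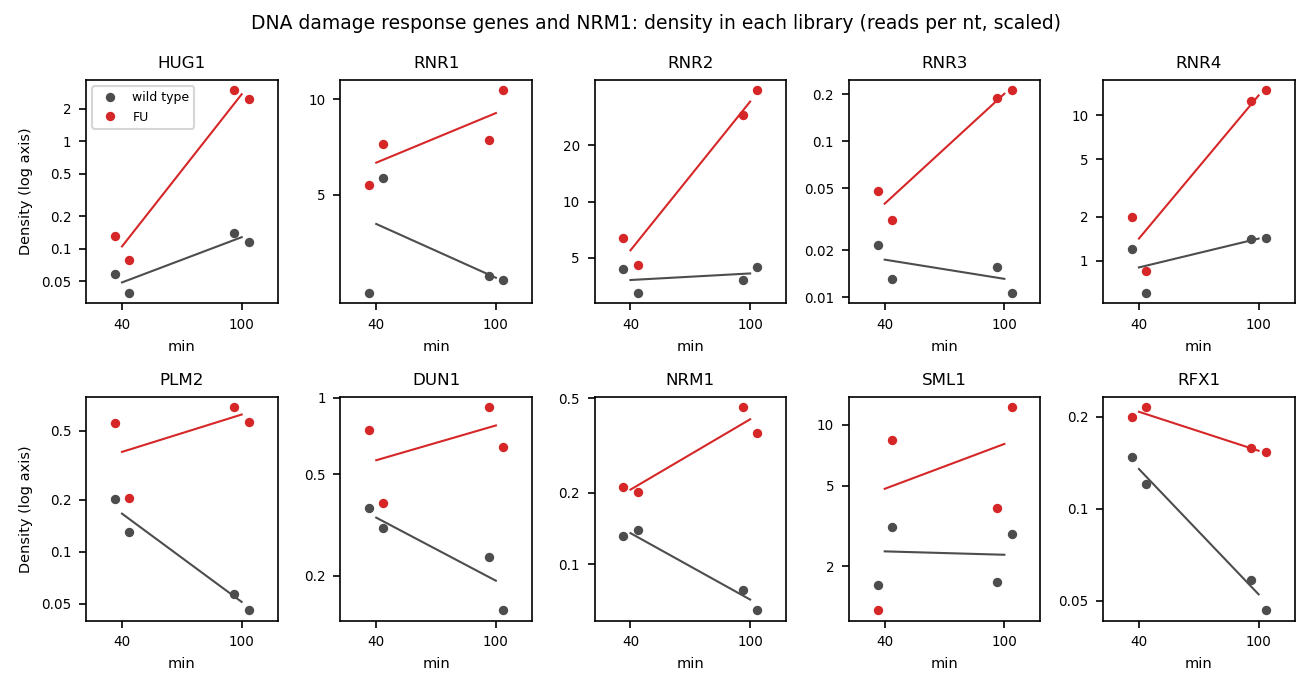
Density in each library (log axis, reads per nucleotide on the deposited scale) at 40 and 100 min for 9 genes of the DNA damage response and for NRM1; grey is wild type, red is FU, and lines join the arithmetic means of 2 libraries. In HUG1 the FU libraries stand at 2.98 and 2.48 at 100 min, and in SML1 the replicates stand far apart in the FU groups.

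NRM1 (YNR009W, chromosome 14, 642690 to 643439, plus strand), a corepressor of MBF, had the smallest unadjusted p of the G1/S genes. It was 0.131 and 0.139, then 0.0780 and 0.0637, in wild type, and 0.211 and 0.201, then 0.458 and 0.358, with FU. FU lay above wild type at both times with no overlap, and the interaction was 1.76 ± 0.30 (adjusted p = 0.102). Of 26 genes of G1/S control 0 were called, 2 were positive and 7 negative at an unadjusted p under 0.05, and the median was -0.16. SWI4, the DNA-binding subunit of SBF, had a value of -1.43 ± 0.35 (adjusted p = 0.303).

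The G1 cyclins CLN1 (0.67 ± 0.55), CLN2 (-1.54 ± 0.56) and CLN3 (0.18 ± 0.74) were not called, nor were the S phase cyclins CLB5 (-0.29 ± 0.38) and CLB6 (0.13 ± 0.62). CLN2 was 0.941 and 0.640, then 0.470 and 0.187, in wild type, and 1.27 and 0.960, then 0.158 and 0.122, with FU, and its fall with time was called with FU (-2.89 ± 0.39, adjusted p = 0.0105) and not in wild type (-1.35 ± 0.39, adjusted p = 0.120). Of 43 DNA replication genes 0 were called, with 1 positive and 0 negative at an unadjusted p under 0.05 and a median of -0.17. CDC21, the thymidylate synthase that the drug inhibits, was 0.807 and 0.521, then 0.357 and 0.208, in wild type and 1.69 and 0.745, then 0.458 and 0.304, with FU (-0.34 ± 0.59). Its groups overlapped at both times.

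Among 16 genes of the early cell cycle box and of licensing, 0 were called, and 6 were negative and 0 positive at an unadjusted p under 0.05. These were all 6 subunits of the MCM helicase, which opens the replication forks, with values from -1.01 ± 0.29 for MCM2 to -0.57 ± 0.23 for MCM7. MCM3 was 0.552 and 0.596, then 0.867 and 0.802, in wild type, and 0.789 and 0.738, then 0.628 and 0.593, with FU (-0.85 ± 0.21, adjusted p = 0.295). FU lay above wild type at 40 min and below it at 100 min with no overlap. The 11 histone genes had a median of 0.45 with 0 at an unadjusted p under 0.05. Of them 3 fell with time in each of wild type and FU, beside 1.06% and 2.64% of all features.

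Sulfur metabolism held the remaining called gene. SAM1 (YLR180W, chromosome 12, 515262 to 516410, plus strand), an S-adenosylmethionine synthetase, was 0.534 and 0.398, then 9.01 and 9.58, in wild type, and 0.789 and 1.10, then 3.22 and 3.40, with FU. FU lay above wild type at 40 min and below it at 100 min, with no overlap at either time. SAM1 rose with time in both, by 4.30 ± 0.21 and by 1.81 ± 0.21, and the interaction was -2.48 ± 0.30 (adjusted p = 0.0227). SAM2 is a close copy of SAM1, reads of the pair may be split between them, and its own value was -2.33 ± 0.77 (adjusted p = 0.521).

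Of 33 genes of sulfur and methionine metabolism 1 was called, and the median was -0.58. At an unadjusted p under 0.05, 12 were negative and 0 positive, beside 4.88% and 2.46% of all features. In wild type 11 of the 33 rose with time and with FU 10 did, beside 1.31% and 1.38% of all features. At 100 min 7 were called lower with FU, beside 0.409%. MET17, the enzyme that takes up sulfide, was 0.0655 and 0.0464, then 2.32 and 2.00, in wild type, and 0.0477 and 0.0726, then 0.470 and 0.465, with FU (-2.25 ± 0.35, adjusted p = 0.0740). MMP1, an S-methylmethionine permease, had a value of -2.37 ± 0.44 (adjusted p = 0.146) and MET6, methionine synthase, of -1.83 ± 0.53 (adjusted p = 0.446). MET17, MMP1 and MET6 rose with time in both conditions, to a lower density with FU. MET3, the first enzyme of sulfate assimilation, had a value of -0.10 ± 0.34.

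Of 24 phosphate genes 0 were called, with 6 negative and 1 positive at an unadjusted p under 0.05 and a median of -0.32. The acid phosphatase genes PHO12 (-2.27 ± 0.42, adjusted p = 0.146) and PHO5 (-2.13 ± 0.42, adjusted p = 0.179) rose with time in wild type and were not called with FU. PHO5 was 0.288 and 0.346, then 1.04 and 1.26, in wild type, and 0.242 and 0.393, then 0.293 and 0.207, with FU. PHO12 and PHO11, and PHO5 and PHO3, are close copies whose reads may be split. In arginine metabolism (15 genes, 0 called, median 0.13) the biosynthetic genes ARG3 (2.46 ± 0.49, adjusted p = 0.179) and ARG1 (2.21 ± 0.53, adjusted p = 0.286) had positive values. ARG3 (YJL088W), ornithine carbamoyltransferase, was 0.0859 and 0.202, then 0.0374 and 0.0325, in wild type, and 0.178 and 0.244, then 0.343 and 0.426, with FU. The arginine breakdown genes CAR1 (-1.34 ± 0.51) and CAR2 (-1.28 ± 0.51) had negative ones, and none of these 4 passed. ARG3 was called without wild type at 40 min replicate 1 (3.02, adjusted p = 0.0466).

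**Figure D4:**
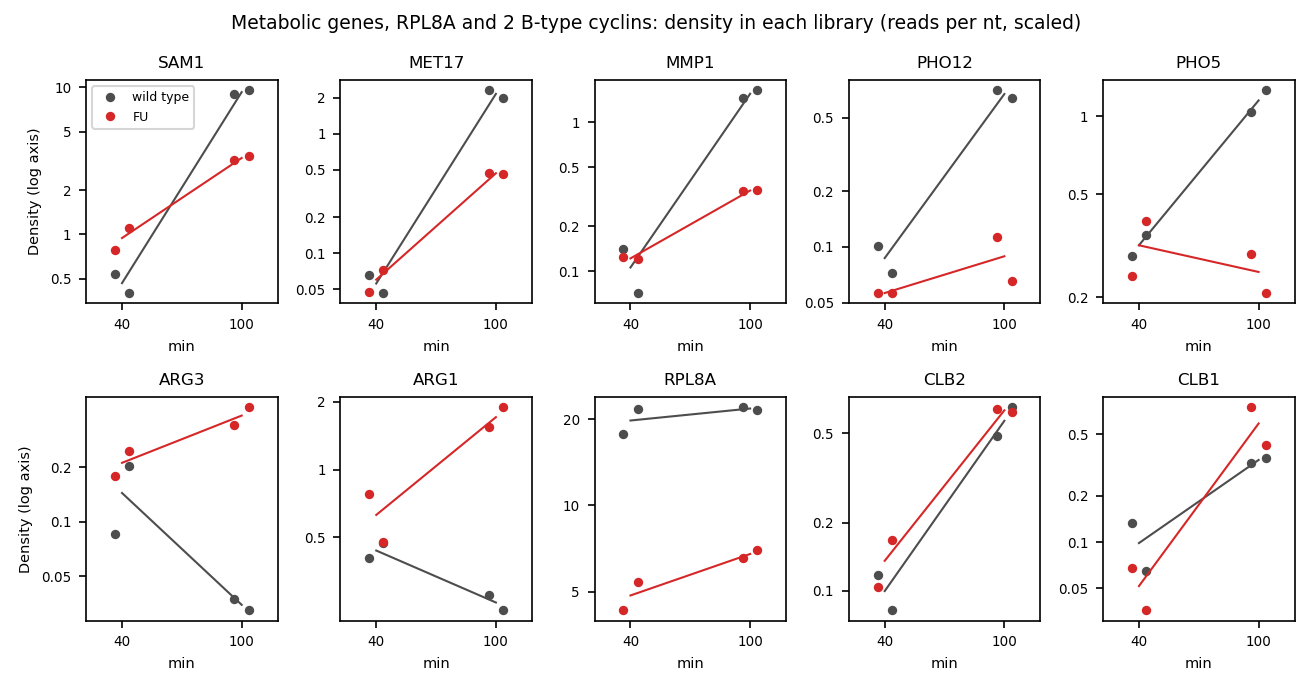
Density in each library (log axis, reads per nucleotide on the deposited scale) at 40 and 100 min for genes of sulfur, phosphate and arginine metabolism, for RPL8A and for the cyclins CLB2 and CLB1; grey is wild type, red is FU, and lines join the arithmetic means of 2 libraries. SAM1 rose in both conditions, to 9.01 and 9.58 in wild type and to 3.22 and 3.40 with FU.

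The genes of the translation machinery had small values with a common sign. Of 137 cytosolic ribosomal protein genes 131 had a positive interaction, beside 4650 of all 11485 features, and 0 were called. At an unadjusted p under 0.05, 49 were positive and 0 negative, beside 2.46% and 4.88% of all features. The median was 0.68, within 0.42 to 0.94 in the alternatives. At 40 min 21 of them fell with FU (median -0.77), and at 100 min 1 fell, RPL8A (median -0.12). Of all features 0.235% and 0.409% fell, with medians of 0.44 and 0.36. The 21 falls belong to the deposited scale, since median of ratios and quantile scaling each left 1 at 40 min. RPL28, a protein of the large subunit encoded by 1 gene, was 45.8 and 57.7, then 53.0 and 48.4, in wild type, and 19.2 and 25.4, then 48.1 and 38.2, with FU (interaction 0.98 ± 0.33, adjusted p = 0.531). Its groups did not overlap at 40 min and came close to each other at 100 min. RPL8A, which has a close copy in RPL8B, stayed low with FU at both times: 17.7 and 21.8, then 22.0 and 21.6, in wild type, and 4.30 and 5.40, then 6.54 and 7.0, with FU (0.34 ± 0.24, adjusted p = 0.885).

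Ribosome biogenesis genes lay on the other side. Of 121 genes, 111 were negative, beside 6812 of all 11485 features, 0 were called, and the median was -0.35. At an unadjusted p under 0.05, 8 were negative and 0 positive, a share near the 4.88% of all features. In wild type 0 changed with time, and with FU 28 fell, beside 2.64% of all features. The 28 falls were 3 with median of ratios and 5 with quantile scaling. DBP2, an RNA helicase, was 4.58 and 4.56, then 3.73 and 3.0, in wild type, and 8.56 and 10.1, then 2.97 and 2.73, with FU (-1.26 ± 0.25, adjusted p = 0.179). FU was the highest group at 40 min and the lowest at 100 min. The limma call of the rise at 40 min was made on the deposited scale (1.02 ± 0.18, adjusted p = 0.0378). On that scale 6 genes of the list rose, beside 2.54% of all features, and 0 did with either other scaling. All 25 genes of the exosome and its cofactors had negative values, with a median of -0.26 beside -0.10 for all features, 0 called and 1 at an unadjusted p under 0.05, a share near that of all features. RRP6 (YOR001W), its nuclear exonuclease, was 1.3 and 1.07, then 0.951 and 0.868, in wild type, and 1.96 and 1.72, then 1.49 and 1.17, with FU. FU was the higher group at both times and RRP6 was called at neither, with an interaction of -0.10 ± 0.30.

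Other lists held 0 called members and are given by their medians. Glycolysis and fermentation lay at -0.45 (19 genes, 3 negative at an unadjusted p under 0.05). Of its genes 12 rose with time in wild type and 9 with FU, beside 1.31% and 1.38% of all features. Heat shock chaperones lay at -0.50 (24 genes, 3 negative) and general stress genes at 0.63 (38 genes, 1 positive, HOR7). The general stress median turned to -0.38 without wild type at 40 min replicate 1 and to -0.02 without FU at 40 min replicate 2. Without wild type at 40 min replicate 1 or replicate 2, the median was -0.90 or -0.13 for glycolysis, -1.20 or -0.02 for heat shock chaperones and -0.44 or 0.76 for hexose transporters. Pyrimidine synthesis and salvage lay at -0.16 (31 genes, 1 positive and 4 negative), aromatic amino acid genes at -0.13 (18 genes, 0 at an unadjusted p under 0.05) and respiration at 0.16 (46 genes, 0). Medians between -0.26 and 0.36 were found for RNA polymerases I and III (-0.26), proteasome (-0.07), ergosterol (-0.05), iron uptake (-0.03), pheromone response (0.01), meiosis (0.11), purine synthesis (0.24), hexose transporters (0.31), other amino acid synthesis (0.34) and cell wall stress (0.36). Named by rule for small p-values outside these lists were HMF1 (0.97 ± 0.19, adjusted p = 0.179), FMP23 (1.81 ± 0.38, adjusted p = 0.209), PHO92 (1.24 ± 0.27, adjusted p = 0.236), which reads RNA methylation, and IZH3 (0.93 ± 0.20, adjusted p = 0.236). PHO92 had few reads, 3 to 17 in each library of the interaction. Its value was 0.19 with the 10-fold constant and 3.42 with limma-voom.

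**Figure D5:**
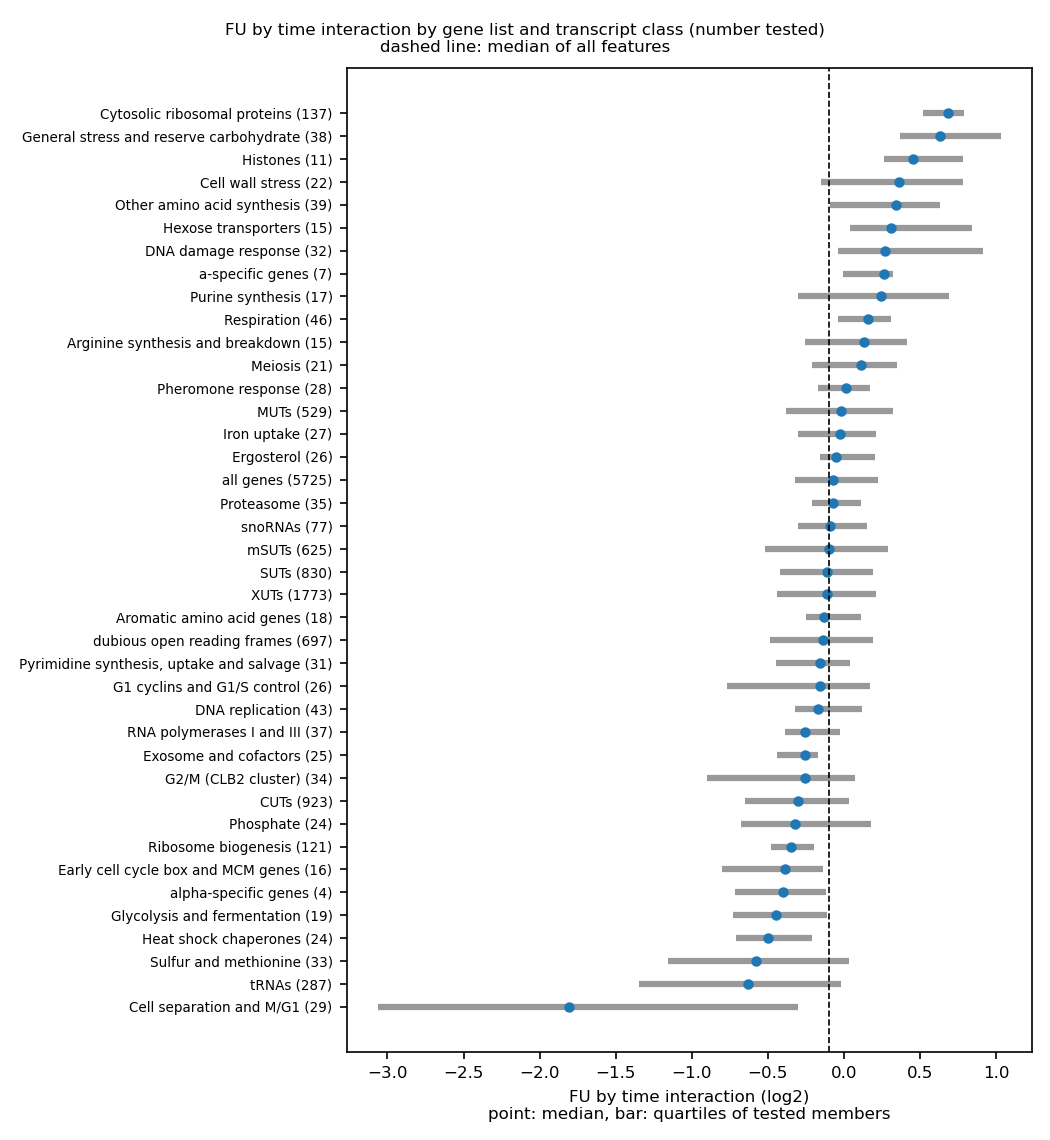
Interaction (log2) of each gene list and transcript class, with the number of members tested in brackets; points are medians, bars run from the lower to the upper quartile, and the dashed line is the median of all features, -0.10. Cell separation genes stand lowest at -1.81 and cytosolic ribosomal protein genes highest at 0.68.

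Among transcripts outside the genes, 1 was called. SUT1290, which the table classes as an mSUT (chromosome 4, 1023372 to 1023470, plus strand), had an interaction of -2.94 ± 0.39 (adjusted p = 0.0324) from very few reads. These were 2 and 1, then 9 and 7, in wild type, and 4 and 4, then 1 and 1, with FU. The groups did not overlap at either time, but a size from so few reads depends on the constant added before the log. SUT1290 lies 40 nt from MRX10 on the opposite strand, whose interaction was 0.09 ± 0.30.

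SUT328 (chromosome 14, 335305 to 336497, plus strand) was 0.123 and 0.164, then 0.436 and 0.593, in wild type, and 0.134 and 0.172, then 0.108 and 0.103, with FU (-2.23 ± 0.35, adjusted p = 0.0828). With the replicate block SUT328 was called (adjusted p = 0.0489), and with the replicate block within time as well (adjusted p = 0.0398). It lies 47 nt from YGP1 on the same strand, whose value was -0.94 ± 0.59. MUT729 (chromosome 8, 237993 to 238113, plus strand) had 12 and 11 reads, then 0 and 0, in wild type, against 47 and 39, then 25 and 25, with FU. Its value was 2.33 ± 0.41 (adjusted p = 0.120), which rests on the constant added since wild type at 100 min is at 0. MUT1046 (0 to 3 reads in each of the 8 libraries), MUT143 and SUT2306 also had few reads, with values of 2.30 ± 0.43, 1.70 ± 0.33 and -3.01 ± 0.52. The dubious open reading frames YPR077C (1.60 ± 0.33), which shares 356 nt with YPR078C on its strand, and YKR047W (-1.43 ± 0.21, adjusted p = 0.0679), which lies opposite NAP1 over 176 nt, did not pass.

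By class, CUTs (cryptic unstable transcripts, which the exosome degrades) had a median of -0.30 in 923 tested of 925, with 0 called. At an unadjusted p under 0.05, 59 were negative and 7 positive, beside 4.88% and 2.46% of all features. At 40 min 71 CUTs rose with FU and at 100 min 16 did on the deposited scale, beside 2.54% and 1.74% of all features. The share of CUTs at 100 min was near that of all features. With median of ratios scaling 0 and 6 CUTs rose. The CUT median moved with single 40 min libraries, to 0.16 without FU replicate 2 and to -0.75 without FU replicate 1. SUTs (830 of 847 tested), XUTs (1773 of 1798) and MUTs (529 of 706) lay at -0.11, -0.11 and -0.02, mSUTs (625 of 746) at -0.10 and dubious open reading frames (697 of 809) at -0.14. The 77 snoRNAs lay at -0.09 with 0 at an unadjusted p under 0.05, and their median ran from -0.83 without FU at 40 min replicate 1 to 0.79 without FU at 40 min replicate 2. The tRNAs lay at -0.63 (287 of 299 tested, 21 negative and 3 positive), and at 0.28 without FU at 40 min replicate 2.

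The time course with FU was also set against that of the rrp6 mutant, named for the gene of the exosome's nuclear exonuclease. It compares the change from 40 to 100 min on each side without wild type, and it shares the FU libraries with the interaction. It was called in 2 features (0.0174%), both higher with FU. HUG1 was 0.175 and 0.155, then 0.273 and 0.265, in rrp6, and its change with time was 3.91 ± 0.39 larger with FU (adjusted p = 0.0366). RNR2 was 2.50 and 3.28, then 1.48 and 2.02, in rrp6, and its change was 3.37 ± 0.38 larger with FU (adjusted p = 0.0457). In both genes the rrp6 libraries at 100 min lay far below those with FU. For the cell separation genes this difference was not called: it was -3.41 ± 0.64 for EGT2 (adjusted p = 0.277), which in rrp6 was 0.548 and 0.853, then 0.833 and 0.604, and -1.62 ± 0.35 for AMN1 (adjusted p = 0.422). A rise of the size seen in wild type was absent in rrp6 as well. Mean densities there were 0.213, then 0.212, for DSE4, 0.522, then 0.514, for PCL9, and 0.417, then 0.463, for DSE3. They were 0.983, then 0.827, for AMN1, 0.145, then 0.193, for AIM44, 0.684, then 0.546, for NIS1, and 0.474, then 0.265, for BUD9. The time change in rrp6 was not tested against wild type. SAM1 in rrp6 was 0.444 and 0.549, then 0.764 and 0.801, a smaller rise than with FU by 1.16 ± 0.30 that did not pass (adjusted p = 0.484). No call was made without any single library at 100 min of wild type or FU, with 533 to 747 features at an unadjusted p under 0.05 in limma, and 10 were made without FU at 40 min replicate 1. The wild-type libraries enter this result through the shared estimate of the spread.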

How the data were processed

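Total RNA of 12 yeast libraries, 2 biological replicates in each of 6 groups, was measured by sequencing. Per the labels' protocols, RNA was extracted with hot phenol, depleted of ribosomal RNA and made into stranded libraries from 125 ng, and pairs of 50 nt reads were sequenced. TopHat is named in the submitters' processing notes, with no version. The authors deposited 1 table of signal values, the density of reads per feature on a common scale, and whether counting used the strand is not stated in the labels. The values were whole reads times a library factor, divided by length, for 100.0% of values within 0.001. Since the unit is a density and not a count, log2(density + 0.0120173), the 10th percentile of values above 0, was tested with limma 3.58.1 in R 4.3.3. Fold changes on this scale understate low features. Features at or above that constant in at least 2 of the 12 libraries were kept. Then 1 mean was fitted per group over all 12 libraries, and the variance was moderated with a trend. The p-values were adjusted by Benjamini and Hochberg over all features tested. The rrp6 libraries entered the added constant, the filter, the estimate of the spread and the last comparison. They had 181 to 216 features at 0, against 424 to 940 in the other libraries. A feature may thus have passed the filter through the rrp6 libraries alone. Replicates of rrp6 also lay closer together. Over genes, their median absolute log2 difference was 0.138 at 40 min and 0.125 at 100 min. In the same order it was 0.486 and 0.19 in wild type and 0.447 and 0.282 with FU. How far this unequal spread bears on the calls was not tested. Python 3.11.15, NumPy 2.4.6, pandas 2.3.3 and matplotlib 3.10.9 were used. The procedure was also run on simulated data, with independent noise of the same size in all libraries for a given feature. That setting has neither the shared deviations of replicates nor the unequal spread of the groups. It therefore cannot show how the calls behave under them.

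Named features were the called ones with 1 sign in all 16 combinations of libraries, up to 10 genes and 4 other features of each sign, filled up by smallest p, plus up to 4 called members of each list, and RRP6, SIC1, CLB1, CLB2, CLB5, CLB6, CLN1, CLN2 and CLN3. The gene lists were written by hand from general knowledge, and the comparison and the lists were chosen with earlier results of these data known. Gene positions follow the deposited table. It names no build, and 5757 of its 5789 genes matched by systematic name have the same start and end in R64. Alternatives were other added constants, no filter, median of ratios and quantile scaling, fewer libraries, limma-voom on the reads, replicate blocks and no variance trend, and, chosen after seeing the data, the fits without both 40 min libraries of 1 replicate number. The replicate numbers give 2 pairs per comparison and the labels do not say what they share, so the main fit did not treat them as pairing the samples. Deviations of same-numbered replicates did correlate over genes, by 0.87 between wild type and FU at 40 min. The main fit leaves this shared part in the spread, and counts with replicate blocks are given below.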

Additional observations from a re-analysis of the deposited data

Results flagged for a closer look

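The drug effect differed between 100 and 40 min, by the interaction test at an adjusted p under 0.05, in 12 features. The difference (log2, 100 min minus 40 min) was -6.21 for EGT2, -5.52 for DSE4, -4.44 for PCL9, -4.33 for DSE3, -3.92 for AMN1 and -3.72 for AIM44. It was -2.94 for SUT1290, -2.85 for MLO50, -2.66 for NIS1, -2.56 for BUD9 and -2.48 for SAM1, and 3.36 for HUG1. The change with time differed between FU and the rrp6 mutant by 3.91 for HUG1 and by 3.37 for RNR2, both higher with FU. All of these rest on 2 libraries a group.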

How the results depend on the processing

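The 12 called features kept their sign in all 20 alternatives and were called in 8 (SUT1290) to 14 of them (AMN1, PCL9, EGT2 and DSE3). Of the named features that were not called, RNR2, RNR3, RNR4, ARG3, MUT729, YKR047W, SUT328 and SUT2306 were called in at least 1 alternative. The interaction gave 0 calls after quantile normalization (815 features at an unadjusted p under 0.05 in limma) and in the 8-library fit (532), and 54 without both 40 min libraries numbered 1. HUG1 was not called by limma-voom (adjusted p = 0.0722). Leaving out 1 library gave 0 to 32 calls for the interaction, 6 to 1340 for the drug at 40 min, 34 to 462 for the drug at 100 min, 26 to 402 for time in wild type, 13 to 1012 for time with FU and 0 to 10 for FU against rrp6. A left-out library leaves a lone sample that is assumed to vary like the other groups. Only wild-type and FU libraries were left out singly, so the range for FU against rrp6 does not cover the loss of an rrp6 library.

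The drug effect at 40 min (319 calls) gave 16 with the 10-fold constant, 5 with median of ratios, 4 with quantiles, 0 in the 8-library fit (2214 at an unadjusted p under 0.05), 79 with limma-voom and 1528 without both libraries numbered 1. At 100 min (247 calls) it gave 164 and 416 with the larger and smaller constant, 119 with median of ratios, 110 with quantiles, 22 in the 8-library fit, and 2503 and 2491 without both 40 min libraries numbered 2 and 1. Time in wild type (272 calls) gave 47 in the 8-library fit, and 1306 and 2611 without those pairs. Time with FU (461 calls) gave 15, 1192 and 3750 in the same order. FU against rrp6 (2 calls) gave 12 with the larger constant, 0 with the smaller (576 at an unadjusted p under 0.05) and with quantiles (722), 1 with no variance trend, and 16 and 550 without the pairs. It has no value in the 8-library fit. The cause of these shifts was not tested.

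With the replicate block the interaction gave 14 calls, and with the replicate block within time 21. In the same order the drug gave 924 and 1078 at 40 min and 536 and 592 at 100 min, time gave 480 and 572 in wild type and 903 and 1056 with FU, and FU against rrp6 gave 1 and 3. Deviations of same-numbered replicates correlated over genes by 0.87 between wild type and FU at 40 min by 0.63 between wild type at 40 and 100 min, by 0.62 between wild type at 100 min and FU at 40 min, by 0.35 at 100 min and by 0.33 between the FU times. With rrp6 at 100 min the correlations were -0.36 to 0.07 for these groups.

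Uncalled values that changed sign were CLN3 (-0.57 to 0.94 without single libraries, -0.16 without both 40 min libraries numbered 1), CLB2 (-0.54 to 0.10 without single libraries, 0.03 with quantiles, 0.33 without both numbered 2), CLB5 (-0.66 to 0.08 without single libraries), CLB6 (-0.40 to 0.66 without single libraries, -0.05 without both numbered 2) and RRP6 (-0.28 to 0.07 without single libraries). Among list medians, general stress ran from -0.38 to 1.69, tRNAs from -1.65 to 0.28 and snoRNAs from -0.83 to 0.79. Depth limits transcripts such as SUT1290, with 1 to 9 reads in each of the 8 libraries. EdgeR and DESeq2 were not run because the unit is not a count.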
